A study of Mus musculus with 4 samples.

Results

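The sugar and amino acid solute carriers of the Slc1, Slc2, Slc3, Slc5, Slc6, Slc7 and Slc38 families were examined in colonic mucosa of wild-type (WT) mice and of mice lacking Itch. Members were taken by symbol: every gene named Slc1, 2, 3, 5, 6, 7 or 38, then "a" and digits alone, which gave 68 of the 19308 genes listed for all 4 libraries. Slc6 was the largest family with 16 members, followed by Slc7 with 13, Slc2, Slc5 and Slc38 with 10 each, Slc1 with 7 and Slc3 with 2. Each group held 2 RNA-seq libraries of total RNA. The WT group carries the strain label C57BL/6, and the other group is labelled Itch KO, a loss of the gene of a HECT-type E3 ubiquitin ligase, with no strain, driver or age given in the sources used here. The protocol describes the knockout mucosa alone as inflamed, whereas the sample labels give inflammation as the state of all 4 libraries. The labels do not say whether the libraries of a group came from separate animals, and every p-value here reflects the spread among the libraries, which may be technical.

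Solute carriers are membrane proteins that move small molecules across cell membranes. Most Slc2 proteins (GLUT) let sugars pass down their gradient, whereas Slc5 proteins couple sugars, inositol, vitamins or short-chain fatty acids to sodium entry. Slc1, Slc6 and Slc38 proteins use ion gradients to import amino acids, neurotransmitters, taurine or creatine. Most Slc7 light chains work only when linked to an Slc3 heavy chain, while a branch of Slc7 carries cationic amino acids alone. In the colon, the surface epithelium takes up butyrate and residual nutrients, and dividing or activated cells of many kinds need glucose and amino acid import.

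Library totals over the listed genes were 8181193 to 12199709 counts. Itch was at 204 and 183 CPM (counts scaled to a common library total) in WT and at 11.9 and 13.4 CPM in Itch KO, which matched the labels (log2 fold change -3.93 with SE 0.15, DESeq2 adjusted p = 3.95e-56). Even Itch had an edgeR adjusted p of 0.0922, and from 0.0629 to 0.421 over 13 other fits. Colonocyte markers were present in every library, with summed levels of 2278 and 1927 CPM in WT and 2421 and 1862 CPM in Itch KO, and none of the 13 was absent from all libraries. WT replicate 1 stood apart by squamous epithelium markers (977 CPM summed, against 14.3 in the other WT library and 29.5 and 35.9 in the knockouts). WT replicate 2 stood apart by small intestine markers (891 CPM, against 305 in the other WT library and 137 and 141 in the knockouts). In bulk mucosa, fewer cells of a type and less RNA per cell cannot be told apart.

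Of the 68 members, 58 had enough counts to be tested, and 48 of these had at least 10 counts in every library. A further 6 reached 10 counts in both libraries of WT alone and 3 in both of Itch KO alone, so for these a difference between groups was favoured by the filter. The 10 members left out averaged at most 1.94 CPM, and Slc6a18, a renal amino acid carrier, had no count in any library. A count of 0 allows up to 3 counts, which is 0.244 to 0.369 CPM in these libraries, for counting error only. A mean of at least 5 CPM was reached by 49 members. Together the members took 0.365% and 0.395% of the counts in WT and 0.361% and 0.336% in Itch KO, and the widest of the 95% Wilson intervals ran from 0.357% to 0.365%.

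No member passed the main test, edgeR's quasi-likelihood test with Benjamini-Hochberg adjustment over all 16956 genes tested, which called 0.0% of all genes. The smallest adjusted p among the members was 0.124, for Slc2a13. At an unadjusted p below 0.05 there were 12 of 58 members, 4 higher and 8 lower in Itch KO, a share of 20.7% beside 19.7% of all genes. Among the 8 lower, Slc6a11 and Slc38a11 reached 10 counts in both libraries of WT alone. DESeq2, the alternative test, called 8 of 58, a share of 13.8% beside 10% of all genes, and limma voom called 0. Both shares lie near their background. Higher in Itch KO by DESeq2 were Slc2a3 and Slc7a11, and lower were Slc2a4, Slc2a5, Slc2a13, Slc5a6, Slc6a19 and Slc38a11. Over the 13 other fits, none of them DESeq2, the adjusted p of these 8 genes lay between 0.098 and 0.512.

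The fitted log2 fold change (Itch KO over WT) was negative for 38 and positive for 20 of the 58 tested members, with a median of -0.32 beside 0.01 over all genes tested. The range ran from -3.25 for Slc38a11 to 2.39 for Slc7a11. Without WT replicate 2 the median was 0.03, so its sign rests on that library. The groups did not overlap for 31 of 58 members (53.4%), beside 56.0% of all genes. Both Itch KO libraries lay below both WT libraries for 21 of them (26.0% of all genes) and above for 10 (30.0% of all genes). Of the 6 members that reached 10 counts in both libraries of WT alone, Slc6a11, Slc7a15 and Slc38a11 are among the 21. The others overlapped, with Slc6a15 and Slc38a4 negative and Slc38a3 positive. The 3 that reached 10 counts in both libraries of Itch KO alone, Slc1a2, Slc6a2 and Slc6a13, were positive and overlapped. The members also varied within groups: the WT libraries differed by more than 2-fold for 23 of 58 members (39.7%), beside 14.4% of all genes. The Itch KO libraries did so for 22 (37.9%), beside 17.6%.

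**Figure D1:**
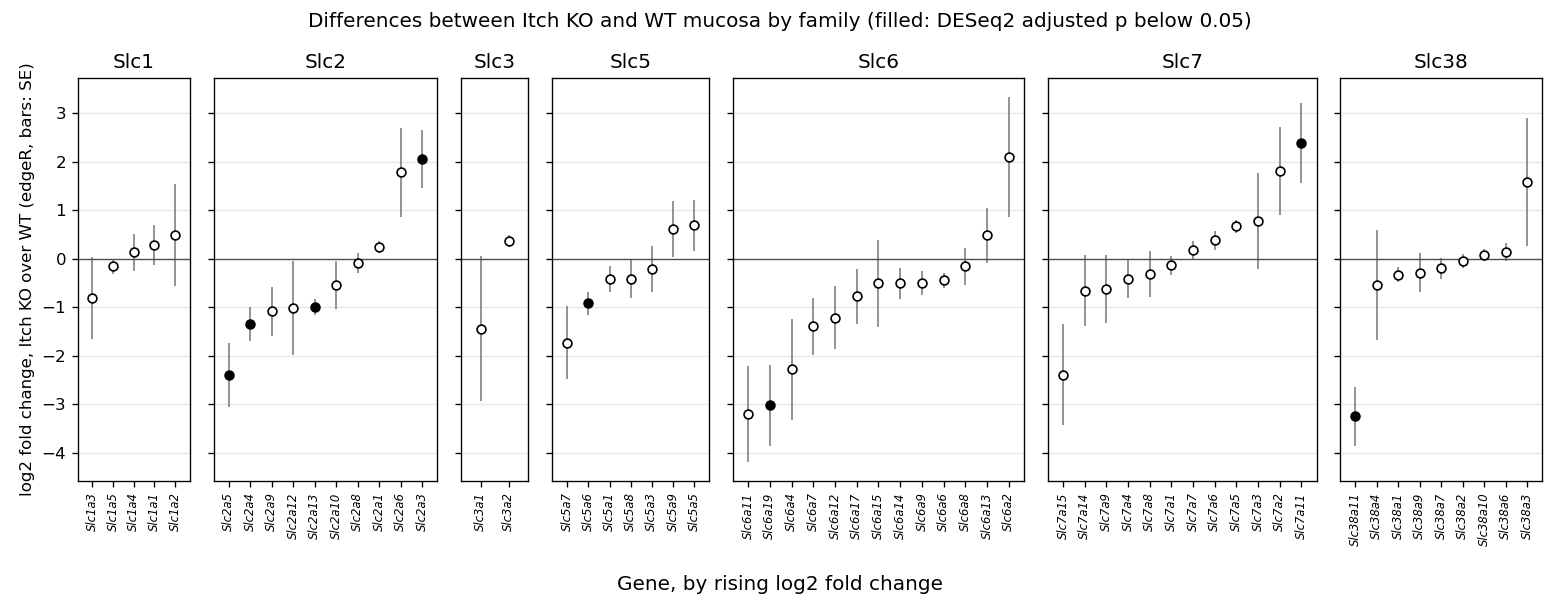
The log2 fold change of each tested member (Itch KO over WT, y axis) is drawn by family, as a point with its standard error from edgeR. Filled points are the 8 members called by DESeq2. In Slc6, 11 of 13 points lie below 0, and in Slc7, 6 of 12.

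By family, the tested Slc6 members had log2 fold changes with a median of -0.51, 11 of 13 negative and 9 separated downwards (26.0% of all genes). Of these 13, 3 had an unadjusted edgeR p below 0.05, all lower (9.52% of all genes), and DESeq2 called 1. Among the 3 is Slc6a11, which reached 10 counts in both libraries of WT alone, so a difference was favoured by the filter. Slc6a11 also counts among the 11 negative and the 9 separated members. Slc6a15, whose negative log2 fold change is the family median, likewise reached 10 counts in both libraries of WT alone. The 2 positive members, Slc6a2 and Slc6a13, reached 10 counts in both libraries of Itch KO alone. The split by sign and the median thus rest partly on members favoured by the filter. Slc2 had a median of -0.77 over 10 members, with extremes of -2.39 and 2.06. Slc5 had -0.42 over 7 members and Slc38 -0.20 over 9. Slc1 (0.13 over 5) and Slc7 (0.02 over 12) were centred near 0, and the 2 Slc3 members pointed in opposite directions. Summed per kb of exon, Slc6 carried 209 and 172 CPM per kb in WT against 159 and 105 in Itch KO, the groups not overlapping. The Slc5 sum was 140.4 and 133 in WT against 146 and 78.4 CPM per kb, so Itch KO replicate 2 alone was low. The Slc7 sum, at 86.6 and 121 against 111 and 122 CPM per kb, overlapped between the groups.

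**Figure D2:**
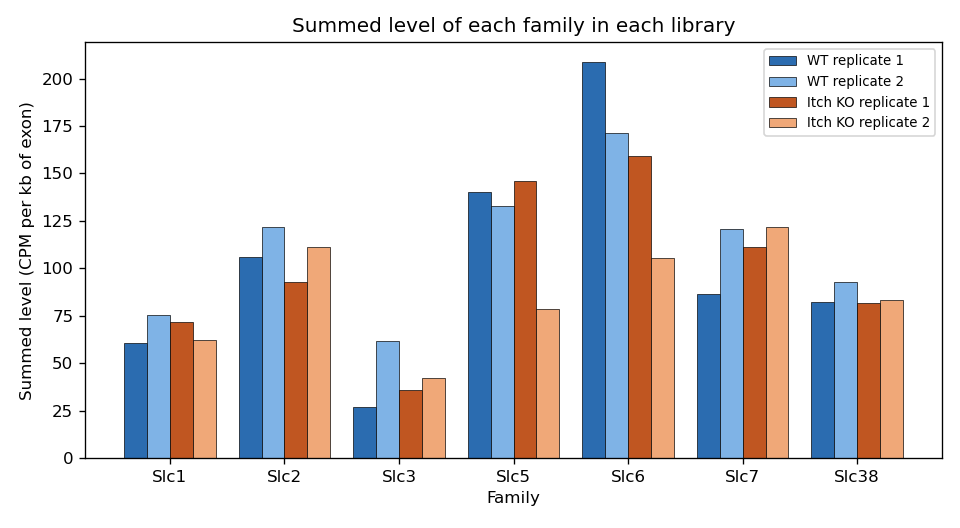
Bars give the summed level of each family in each library (CPM per kb of exon, y axis from 0). Slc6 is the tallest family in WT, and its Itch KO bars of 159 and 105 stand below its WT bars of 209 and 172.

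Of the Slc2 carriers, none passed the main test, and DESeq2 called Slc2a3 higher and Slc2a4, Slc2a5 and Slc2a13 lower in Itch KO. Slc2a1 (GLUT1), the basal glucose transporter and the Slc2 member with the highest level per kb, stood at 135 and 122 CPM in the WT libraries and at 155 and 148 in the knockouts. The groups did not overlap, but the log2 fold change of 0.24 (SE 0.13) did not pass (edgeR adjusted p = 0.366). Slc2a3 (GLUT3; ENSMUSG00000003153, GRCm38 chromosome 6, 122727809 to 122801640, minus strand), a high-affinity glucose transporter of neurons and leukocytes, stood at 10.7 and 17.6 CPM in the WT libraries and at 31.6 and 86.1 in the knockouts. Both knockout libraries were above both WT libraries, with replicate 2 the highest. The log2 fold change was 2.06 (SE 0.59, edgeR adjusted p = 0.194, DESeq2 adjusted p = 0.00963), and the DESeq2 adjusted p was 0.717 without Itch KO replicate 2 and 0.0699 with WT replicate 1 left out. Per kb, Slc2a3 stood at 0.0381 and 0.07 of the Slc2a1 level in WT and at 0.0988 and 0.282 in Itch KO. Slc2a6 (GLUT6), an intracellular member also known from macrophages, was at 3.84 and 19.7 against 24.2 and 57.0 CPM, a log2 fold change of 1.78 (SE 0.91, edgeR adjusted p = 0.353).

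Summed leukocyte markers were also higher in both Itch KO libraries than in either WT library. Within WT, the neutrophil and macrophage sums and Slc7a11 were higher in replicate 1. The T cell and the B and plasma cell sums, Slc2a3 and Slc2a6 were higher in replicate 2. Summed neutrophil markers were at 215 and 15.7 CPM in the WT libraries and 411 and 726 in Itch KO, with 8 of 8 tested members positive. Ltf made up much of the sum in WT replicate 1, at 126 and 2.28 CPM in WT against 58.1 and 82.9 in Itch KO. It overlapped, with a log2 fold change of only 0.14. The other tested neutrophil markers were also higher in WT replicate 1 than in WT replicate 2. Macrophage markers were at 539 and 359.5 against 717 and 983 CPM (8 of 9 positive), T cell markers at 86.5 and 116 against 222 and 303 (9 of 9) and B and plasma cell markers at 37.9 and 52.9 against 567 and 582 (8 of 8). None of these markers was at 0 in all libraries. Their part in the levels of Slc2a3, Slc2a6 and Slc7a11 was not tested.

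Slc2a13, the proton-coupled myo-inositol transporter (ENSMUSG00000036298, chromosome 15, 91267696 to 91573261, minus strand), gave the smallest edgeR p of all members. It stood at 109 and 96.5 CPM in the WT libraries and at 56.1 and 46.3 in the knockouts, averaging 102.5 ± 8.57 in WT and 51.2 ± 6.99 in Itch KO (SD, n = 2 libraries). The gap between the groups was several times the spread within either. The log2 fold change was -1.0 (SE 0.16, edgeR unadjusted p = 0.00261, adjusted p = 0.124, DESeq2 adjusted p = 0.00148). The DESeq2 call was lost without Itch KO replicate 2, WT replicate 1 or WT replicate 2, at adjusted p of 0.237, 0.256 and 0.133. Slc2a4 (GLUT4; ENSMUSG00000018566, chromosome 11, 69942539 to 69948188, minus strand), the insulin-responsive carrier of muscle and fat, was at 71.8 and 58.8 against 18.3 and 33.0 CPM, a log2 fold change of -1.35 (SE 0.34, edgeR adjusted p = 0.171, DESeq2 adjusted p = 0.0145). That call was lost without Itch KO replicate 1, WT replicate 1 or WT replicate 2, at adjusted p of 0.226, 0.292 and 0.118. Smooth muscle markers summed to 1753 and 1092 CPM in WT and 814 and 1044 in Itch KO. Of these, 7 of 7 were negative, but the median log2 fold change was only -0.11. Myh11 (-1.07) and Synm (-1.49) separated downwards (26.0% of all genes), and the others overlapped. The part of smooth muscle in the Slc2a4 difference was not tested. Slc2a9, a urate transporter, was at 21.1 and 53.0 against 17.2 and 17.7 CPM, separated but with WT replicate 2 far above WT replicate 1 (edgeR adjusted p = 0.324).

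Slc2a5 (GLUT5; ENSMUSG00000028976, chromosome 4, 150119283 to 150144169, plus strand), the fructose transporter, was lower in Itch KO. Its level was 16.8 and 33.9 CPM in the WT libraries and 6.76 and 2.89 in the knockouts, with no overlap (log2 fold change -2.39 with SE 0.66, edgeR adjusted p = 0.186, DESeq2 adjusted p = 0.0086). The DESeq2 adjusted p was 0.570 without WT replicate 2 and 0.299 without Itch KO replicate 2. Genes of fructose and disaccharide handling pointed the same way, with all 8 tested members negative at a median of -0.97. Of these, 4 had an edgeR unadjusted p below 0.05, all lower, beside 9.52% of all genes in that direction, and 2 were called lower by DESeq2, beside 4.76%. Sis, the sucrase-isomaltase of the small intestine, was at 1.71 and 172 against 0.369 and 0.31 CPM. Sis is thus set by WT replicate 2, and Sis, Lct and Treh of this list also stand among the small intestine markers.

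**Figure D3:**
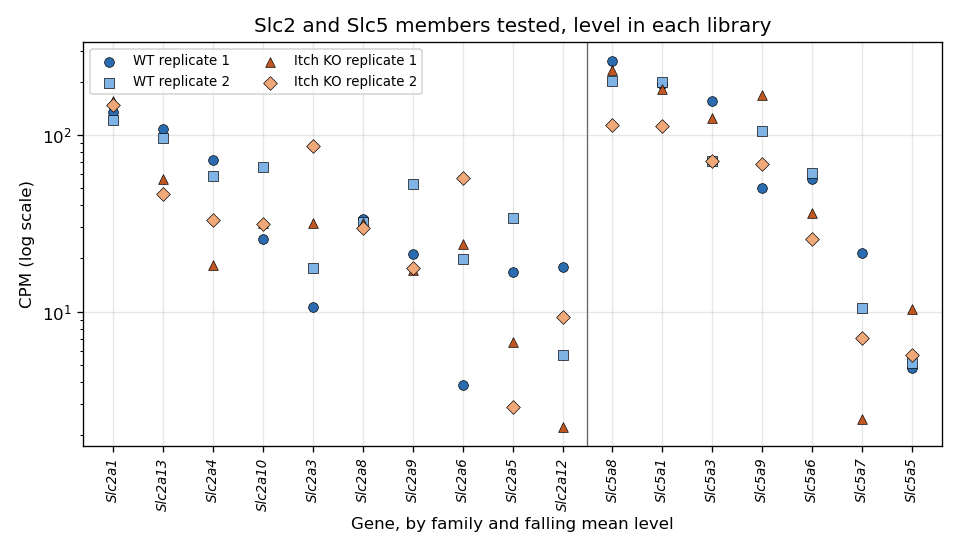
Each point is the level of a tested Slc2 or Slc5 member in a library (CPM, log y axis), with a vertical line between the families. Slc2a13, Slc2a4 and Slc5a6 show both WT points above both Itch KO points, while Slc2a3 shows the opposite order.

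The sodium-coupled Slc5 carriers of the colonocyte surface were abundant in every library. Slc5a1 (SGLT1), the sodium-glucose carrier, stood at 195 and 199.7 CPM in the WT libraries and at 183 and 112 in the knockouts. Slc5a8 (SMCT1), which takes up butyrate and other short monocarboxylates, was at 263 and 203 against 234 and 114 CPM and overlapped. In both cases Itch KO replicate 2 was the low library, and the log2 fold changes were -0.42 for each (SE 0.27 and 0.39, edgeR adjusted p = 0.429 and 0.578). Slc5a9 (SGLT4), a mannose carrier picked after its values were seen, varied without order between groups (49.9 and 105 against 169 and 68.5 CPM). Slc5a3, a sodium-myo-inositol carrier, differed more between replicates than between groups, at 156 and 71.2 against 125 and 70.8 CPM.

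Slc5a6 (SMVT; ENSMUSG00000006641, chromosome 5, 31036036 to 31048924, minus strand), the sodium-dependent transporter of biotin and pantothenate, was lower in Itch KO. It stood at 56.4 and 61.0 CPM in the WT libraries and at 36.2 and 25.8 in the knockouts (log2 fold change -0.92 with SE 0.23, edgeR adjusted p = 0.169, DESeq2 adjusted p = 0.0436). The DESeq2 call ended when any of the 4 libraries was left out, with adjusted p from 0.113 to 0.696. Atraid, whose exons on the other strand share 9.92% of the exonic length of Slc5a6, stayed between 47.1 and 51.5 CPM. Slc5a7, the choline transporter of cholinergic neurons, was at 21.6 and 10.4 against 2.46 and 7.13 CPM (edgeR adjusted p = 0.302), and Slc5a5, the iodide transporter, at 4.80 and 5.13 against 10.3 and 5.68 CPM (edgeR adjusted p = 0.506). Enteric neuron and glia markers summed to 195 and 267 CPM in WT and 226 and 362 in Itch KO and overlapped, with 5 of 9 negative.

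Of the brush border amino acid carriers Slc6a19, Slc3a1 and Slc7a9, Slc6a19 alone had groups that did not overlap, and all differed by more than 2-fold between the WT libraries. Slc6a19 (B0AT1; ENSMUSG00000021565, chromosome 13, 73679745 to 73704865, minus strand), the main neutral amino acid importer of the small intestinal brush border, stood at 5.87 and 21.7 CPM in the WT libraries and at 1.84 and 1.55 in the knockouts. Both knockout libraries were below both WT libraries, which differed several-fold from each other (log2 fold change -3.02 with SE 0.83, edgeR adjusted p = 0.186, DESeq2 adjusted p = 0.014). The DESeq2 adjusted p was 0.990 without WT replicate 2, and 0.138 and 0.291 on leaving out Itch KO replicate 1 or 2.

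Slc3a1 and Slc7a9 encode the heavy and light chains of the cystine and dibasic amino acid carrier, and they did not follow each other. Slc3a1 stood at 2.77 and 87.0 CPM in the WT libraries and at 11.2 and 21.9 in the knockouts, so the WT libraries held both the lowest and the highest value. Its log2 fold change was -1.44 (SE 1.49) with all libraries and 2.57 without WT replicate 2. Prepl, whose exons on the opposite strand cover 26.5% of the Slc3a1 exonic length, was at 84.4 and 114 against 84.7 and 64.1 CPM. Slc7a9 was at 23.7 and 52.4 against 37.2 and 11.9 CPM and overlapped. The ratio of Slc7a9 to Slc3a1 per kb was 7.25 and 0.511 in WT and 2.83 and 0.46 in Itch KO. Small intestine markers were lower in both knockout libraries, with 8 of 8 tested members negative and none at 0 in all libraries, and highest in WT replicate 2, as were Slc6a19, Slc3a1, Slc2a5 and Slc7a9. Their part in these differences was not tested.

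**Figure D4:**
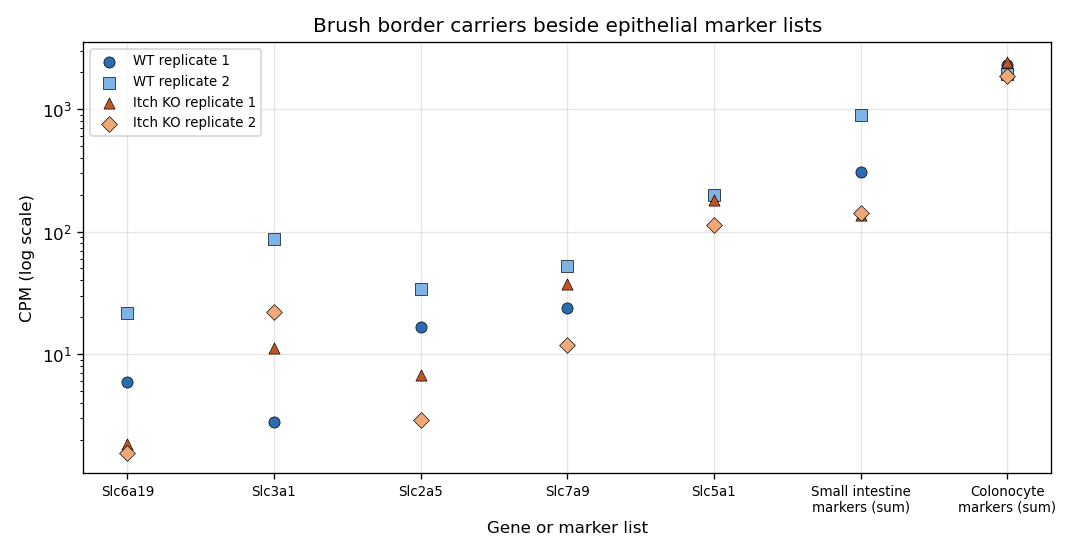
Points give the level in each library (CPM, log y axis) of 5 carriers and of the summed small intestine and colonocyte markers. WT replicate 2 is the highest library for Slc6a19, Slc3a1, Slc2a5, Slc7a9 and the small intestine markers, whereas the colonocyte sums of 1862 to 2421 CPM lie close together.

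Slc6a14 (ATB0,+), which imports neutral and cationic amino acids with sodium and chloride, had the highest mean level per kb of the 68 members, at 52.6 CPM per kb beside 49.7 for Slc6a8. Slc6a8 was the higher of the pair in every library but WT replicate 2. Slc6a14 stood at 210.4 and 214 CPM in the WT libraries and at 192 and 106 in the knockouts, with the difference carried by Itch KO replicate 2 (log2 fold change -0.51 with SE 0.32, edgeR adjusted p = 0.422). Slc6a4, the serotonin reuptake transporter, was at 57.7 and 27.1 against 15.5 and 2.07 CPM, a log2 fold change of -2.28 (SE 1.04, edgeR adjusted p = 0.317). Every library stood well apart from the next, so the groups separated without a call. Slc6a7, a proline carrier known from brain, was at 71.7 and 40.3 against 31.1 and 11.6 CPM (edgeR adjusted p = 0.292), and Slc6a17, a vesicular carrier of neurons, at 44.6 and 35.0 against 11.8 and 34.7 CPM (edgeR adjusted p = 0.485).

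Of the 9 tested carriers of neurotransmitters, osmolytes and creatine, 7 had a negative log2 fold change, with a median of -0.50. The Itch KO libraries lay below both WT libraries for 6 (26.0% of all genes) and above for 0 (30.0%). Of the 9, 2 had an unadjusted edgeR p below 0.05, both lower (9.52%), and neither edgeR nor DESeq2 called any. All are Slc6 members, so these counts are part of those given for that family. Slc6a11, among the 6 and the 2, entered the test through WT alone. The 2 positive members, Slc6a2 and Slc6a13, entered it through Itch KO alone. The following members of this group were picked after their values were seen. Slc6a6, the taurine transporter, was at 260.3 and 298 CPM in WT and, in Itch KO, at 211 and 199, tight groups with an edgeR unadjusted p of 0.0421 and an adjusted p of 0.238. Slc6a8, the creatine transporter, was among the most abundant members per kb and overlapped, with replicate 1 above replicate 2 in either group (349 and 198 against 301 and 189 CPM). Slc6a11, a GABA transporter, was low throughout at 2.45 and 10.9 against 0.491 and 0.929 CPM, and it entered the test through WT alone (edgeR unadjusted p = 0.0288, adjusted p = 0.210). In the other classes, 11 of 15 neutral amino acid carriers and 9 of 13 sugar and polyol carriers were negative. So were 3 of 4 carriers of vitamins, choline, iodide and monocarboxylates, 4 of 9 heteromeric chains, 3 of 5 cationic and 1 of 3 acidic amino acid carriers. Of the neutral carriers, Slc6a15, Slc38a4 and Slc38a11, all negative, and Slc38a3, positive, entered the test through WT alone. So did Slc7a15, a negative heteromeric chain, while Slc1a2, a positive acidic carrier, entered it through Itch KO alone.

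Among the amino acid importers of the Slc1 and Slc38 families, Slc1a1, Slc1a5, Slc38a1, Slc38a2, Slc38a6 and Slc38a10 had log2 fold changes between -0.33 and 0.28. Slc1a5 (ASCT2), a glutamine exchanger, stood at 170.5 and 171 CPM in the WT libraries and at 169 and 138 in the knockouts, a log2 fold change of -0.15 (SE 0.15). Slc38a2 (SNAT2), which is induced when amino acids are scarce, was at 208 and 191 against 206 and 179 CPM (-0.05, SE 0.15), and Slc38a1 at 189 and 229 against 174 and 159 CPM (-0.33, SE 0.16). The sign of both turned positive with the trend of level on exon length removed, at 0.16 for Slc38a2 and 0.12 for Slc38a1. Slc38a10, with the highest level per kb in its family, was at 161 and 169.8 against 177 and 170.0 CPM, and Slc38a6 at 34.8 and 38.1 against 41.3 and 38.8. Slc1a1 (EAAC1), a glutamate and aspartate importer, overlapped at 53.5 and 36.6 against 73.0 and 36.6 CPM. None of these 6 passed edgeR, with adjusted p from 0.338 to 0.868, which does not show that their levels were equal.

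Slc38a11, at a low level, had the most negative fold change of all tested members. This member of the sodium-coupled amino acid carriers (ENSMUSG00000061171, chromosome 2, 65316430 to 65364034, minus strand) had 83 and 160 counts in WT and 12 and 8 in Itch KO, or 8.86 and 13.04 against 1.47 and 0.826 CPM. It is among the 6 members that reached 10 counts in both libraries of WT alone, so it entered the test through the group where it was high. The knockout mean was 9.52-fold below the WT mean (log2 fold change -3.25 with SE 0.61, edgeR adjusted p = 0.131, DESeq2 adjusted p = 0.00185). The DESeq2 adjusted p was 0.222 without Itch KO replicate 2, and 0.106 and 0.438 on leaving out WT replicate 1 or 2. Slc38a5 (SNAT5), a glutamine carrier, had 2 and 1 counts in WT and 0 and 38 in Itch KO, so it was detected above a few counts in Itch KO replicate 2 alone.

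**Figure D5:**
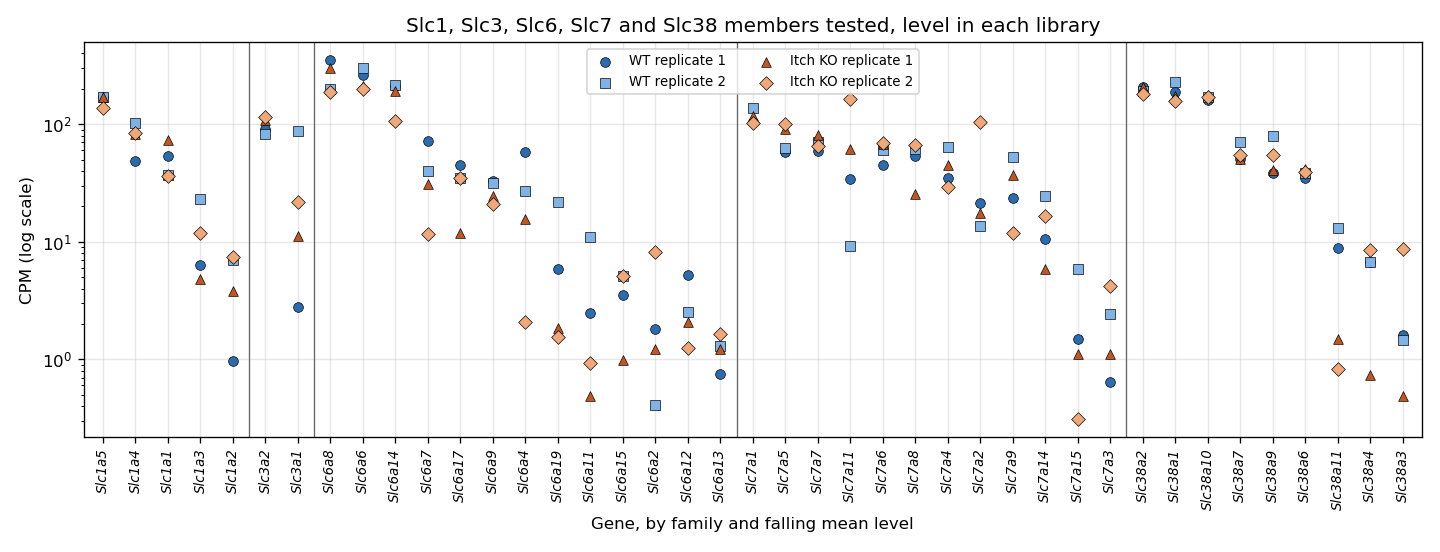
Each point is the level of a tested Slc1, Slc3, Slc6, Slc7 or Slc38 member in a library (CPM, log y axis), with vertical lines between families. Slc7a5 and Slc3a2 show tight groups with Itch KO on top, Slc38a11 shows WT on top, and Slc3a1 and Slc7a2 show a single library far above the rest.

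Slc3a2 and its light chains Slc7a5, Slc7a6 and Slc7a11 were at higher levels in each knockout library than in either WT library. They are the 4 of 9 tested heteromeric chains that separated upwards (30.0% of all genes), and 1, Slc7a15, separated downwards (26.0%). Slc7a15 entered the test through WT alone, so its downward difference was favoured by the filter. Slc3a2 (CD98 heavy chain), the partner of most Slc7 light chains, stood at 91.2 and 82.8 CPM in the WT libraries and at 109.5 and 115 in the knockouts (log2 fold change 0.37 with SE 0.12, edgeR adjusted p = 0.22). Slc7a5 (LAT1; ENSMUSG00000040010, chromosome 8, 121881150 to 121907694, minus strand), which imports large neutral amino acids such as leucine, was at 57.5 and 62.5 against 90.4 and 99.9 CPM, averaging 60.0 ± 3.54 in WT and 95.2 ± 6.68 in Itch KO (SD, n = 2 libraries). In both genes the gap between the groups exceeded the spread within them, but neither was called over all genes (Slc7a5 log2 fold change 0.66, SE 0.13, edgeR adjusted p = 0.134, DESeq2 adjusted p = 0.0587). The Slc7a5 level per kb was 0.6 and 0.719 of that of Slc3a2 in WT and 0.786 and 0.823 in Itch KO. Slc7a6, an exchanger of cationic and neutral amino acids, was at 45.2 and 60.1 against 67.2 and 69.8 CPM (edgeR adjusted p = 0.347). The related Slc7a7 overlapped at 58.6 and 70.7 against 80.5 and 65.8 CPM, as did Slc7a8 (LAT2) at 53.7 and 60.9 against 25.6 and 66.3.

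Slc7a11 (xCT; ENSMUSG00000027737, chromosome 3, 49892526 to 50443614, minus strand), the light chain that exchanges glutamate for cystine and so feeds glutathione synthesis, had the largest positive fold change of all tested members. It stood at 34.1 and 9.21 CPM in the WT libraries and at 61.8 and 163 in the knockouts, with no overlap but a wide spread in both groups. The log2 fold change was 2.39 (SE 0.82, edgeR adjusted p = 0.233, DESeq2 adjusted p = 0.00942). Its DESeq2 call held without Itch KO replicate 1, WT replicate 1 or WT replicate 2, and ended without Itch KO replicate 2 (adjusted p = 0.570). Slc7a2 (CAT2), a cationic amino acid carrier known to supply arginine in activated macrophages, was at 21.4 and 13.5 against 17.4 and 105 CPM. The difference in Slc7a2 was therefore carried by Itch KO replicate 2 alone (log2 fold change 1.81 with SE 0.91, edgeR adjusted p = 0.343). That library also had the highest sums of neutrophil, macrophage, T cell, B and plasma cell, mast cell, endothelial, and enteric neuron and glia markers. The part of these cells in the level of Slc7a2 was not tested. Slc7a1 (CAT1), its constitutive relative, was at 104 and 138 against 118 and 102 CPM. The ratio of Slc7a2 to Slc7a1 per kb was 0.261 and 0.124 in WT and 0.186 and 1.31 in Itch KO.

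The upstream windows of Slc7a11 and Slc7a7 are shown because they are the only 2 of the 50 members matched in the RefSeq promoter table (GRCm38.p6) that hold the core of the amino acid response element, TGATGNAA, on either strand. The element is bound by ATF4, a transcription factor induced by amino acid shortage. Each window is the 250 bases before a start site, written 5′ to 3′ on the strand of the gene, with matches in capitals. The Slc7a11 window is chr3:50443614-50443863 and the Slc7a7 window, from 1 of its 5 starts, is chr14:54417945-54418194, both on the minus strand. Of the 5 Slc7a7 windows, 2 hold a match. The one not shown, chr14:54417703-54417952, has TGATGCAA with its leftmost base at position -243 from that start.
Slc7a11: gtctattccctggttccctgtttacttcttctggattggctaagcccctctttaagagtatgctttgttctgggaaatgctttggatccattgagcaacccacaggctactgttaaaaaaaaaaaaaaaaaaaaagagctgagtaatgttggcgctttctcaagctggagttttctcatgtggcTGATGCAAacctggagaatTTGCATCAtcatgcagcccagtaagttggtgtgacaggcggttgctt
Slc7a7: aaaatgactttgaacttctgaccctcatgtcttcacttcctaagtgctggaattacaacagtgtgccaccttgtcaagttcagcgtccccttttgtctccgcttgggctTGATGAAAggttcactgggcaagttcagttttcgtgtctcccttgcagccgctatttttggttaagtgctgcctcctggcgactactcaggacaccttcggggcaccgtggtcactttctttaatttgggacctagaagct
The Slc7a11 window holds a pair of matches facing opposite ways, with their leftmost bases at positions -66 and -47 from the start, and neither overlaps a match to the other motifs searched. A match was present in 3.91% of the 27025 genes in the table. The groups separated for Slc7a11 and overlapped for Slc7a7, and a link between the match and the levels was not tested. The antioxidant response element core TGACNNNGC was found in 6 of 50 members (11.5% of all genes), the hypoxia element core ACGTG in 13 (18.5%) and the binding site of HNF1, an epithelial transcription factor, in 0 (0.0111%), all searched on both strands. These are matches of letters in short windows and no evidence of binding.

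Genes that cells induce under amino acid shortage were also measured. Of 20 such genes, 16 had a positive log2 fold change, with a median of 0.63. At an edgeR unadjusted p below 0.05, 9 were higher, beside 10.2% of all genes, and 1 was lower. DESeq2 called 8 higher, beside 5.24% of all genes, and 1 lower. Phgdh, which starts serine synthesis, stood at 12.7 and 13.9 CPM in the WT libraries and at 32.9 and 36.9 in the knockouts, and Shmt2, which splits serine in mitochondria, at 62.7 and 54.3 against 105 and 98.0. Both had tight groups that did not overlap (DESeq2 adjusted p = 0.00553 and 0.0172). The list holds no solute carrier of the 68, and edgeR called none of it.

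The median over 20 tested glycolysis genes was 0.25 on the log2 scale, with 16 positive, and DESeq2 called 3 higher (5.24% of all genes) and 0 lower (4.76%). Pfkfb3, an activator of glycolysis, was at 63.5 and 54.0 against 124 and 205 CPM (DESeq2 adjusted p = 0.000279), and Hk3, a hexokinase of myeloid cells, at 11.5 and 3.10 against 45.7 and 122 CPM (DESeq2 adjusted p = 5.33e-05). Other amino acid and peptide transporters outside the 7 families had a median of 0.39 over 11 tested genes. Slc15a3, a lysosomal peptide and histidine carrier of myeloid cells, was at 15.5 and 7.58 against 54.2 and 118 CPM (DESeq2 adjusted p = 1.02e-05), and Pqlc2, a lysosomal exporter of cationic amino acids, at 28.3 and 32.4 against 47.3 and 45.9. The neutrophil and macrophage sums were higher in the same libraries, and their part in Hk3 and Slc15a3 was not tested. Among 6 partner and trafficking genes, 3 were negative, with Sgk1, a kinase that activates several carriers, at 155 and 149 against 116 and 93.5 CPM. Over the 13 fits that were neither the main test nor DESeq2, the adjusted p of the genes named from these lists lay between 0.0891 and 0.498.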

How the data were processed

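RNA-seq counts of colonic mucosa were compared between 2 WT and 2 Itch KO libraries, grouped by their titles. Each library has a file of raw counts by gene, as deposited by the authors. HTSeq 0.6.1, SAMtools 0.1.19, TopHat2 and CASAVA 1.8.2 appear in the submitters' processing notes, beside the builds GRCm38 and mm10, and the strand setting is not given in the sources used here. WT replicate 1 has a shorter gene list (19308) than the other libraries (39179), so the 19308 shared genes were used, and these carry 97.3% to 97.7% of the counts in the longer files. Summary lines stayed out of library sizes and tests; reads outside genes were 18.2% to 23% and ambiguous reads 2.67% to 3.03% of the 3 files that give them. No gene exceeded 9389 counts and the 10 highest held at most 0.633% of a library, so levels of abundant genes may be compressed, which was not tested.

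Library sizes were scaled by TMM for CPM. Groups were compared first by quasi-likelihood F tests in edgeR 4.0.16 under R 4.3.3 (filterByExpr with a minimum count of 10, robust fit, group alone, two-sided, threshold 0.05 after Benjamini-Hochberg adjustment). The biological coefficient of variation was 34.8%. DESeq2 1.42.0 and limma 3.58.1 (voom) were alternatives. Fits were tested on simulated data. Positions and exonic lengths came from GENCODE M21 (GRCm38), which matched all 68 members by identifier and name. Exons of 16 members share bases with another gene, in 15 of them on the opposite strand alone. Reads in these bases may not have been told apart, as the strand setting is not given.

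Members, lists, motifs and roles were chosen with earlier results of these data known. The rule for named genes took 23 carriers by role (Slc2a2 is not analysed here), up to 8 others in each direction with non-overlapping groups and a mean of at least 5 CPM, and the highest member per kb in each family, 36 in all. From each pathway list it took the 2 smallest edgeR p among genes of at least 5 CPM. Some of these are not reported here.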

Additional observations from a re-analysis of the deposited data

How the results depend on the processing

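The edgeR count of called members, 0 of 58, held under RLE and upper quartile factors, both other filters, limma voom, robust=FALSE, legacy=FALSE, the removal of the exon length trend and each library left out, as did the count of 0 over all genes (3343 genes had an unadjusted p below 0.05). DESeq2 called 1696 genes and 8 members. Leaving out each library in turn, chosen after seeing the data, left DESeq2 with 1229 genes and 11 members when Itch KO replicate 1 was dropped, 438 and 1 for Itch KO replicate 2, 1170 and 4 for WT replicate 1, and 893 and 4 for WT replicate 2. In these fits the lone library of a group is assumed to vary like the other group. Members at an unadjusted edgeR p below 0.05 numbered 10 to 14 with all libraries and 9 to 16 with a library left out, beside 9 by limma voom and 17 by DESeq2. The median log2 fold change of the members ranged from -0.38 to 0.033 with a library left out and changed sign only without WT replicate 2.

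The replicate numbers of the titles were fitted as a block: with the replicate block edgeR called 0 members and 0 genes, 12 members had an unadjusted p below 0.05 and the median was -0.27. Deviations of same-numbered libraries had a correlation of 0.048 across 16956 genes. A correlation over all genes cannot exclude a batch shared by same-numbered libraries that affected some genes. Of 46 named genes, 9 changed sign under some setting. With the exon length trend removed, the log2 fold change was 0.12 for Slc38a1, 0.16 for Slc38a2, 0.084 for Slc5a3 and 0.17 for Slc7a1, all negative in the main test. With a library left out, it ranged from -0.30 to 0.71 for Slc1a1, -0.15 to 0.055 for Slc38a2, -2.37 to 2.57 for Slc3a1, -0.68 to 0.47 for Slc5a3, -1.03 to 0.018 for Slc5a8, -0.31 to 0.078 for Slc7a1, -1.15 to 0.21 for Slc7a8 and -1.68 to 0.04 for Slc7a9. The cause was not tested. Of the DESeq2 calls, Slc7a11 held without 3 of the libraries, Slc2a3 and Slc2a5 without 2, Slc2a4, Slc2a13, Slc6a19 and Slc38a11 without 1 and Slc5a6 without 0. Low counts limit the 10 members left out of the test.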
